A study of Homo sapiens with 8 samples.

Results

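Nitric oxide and cyclic GMP signalling was followed through 8 genes of a table of 30386: the endothelial nitric oxide synthase NOS3, both subunits of the main soluble guanylyl cyclase (GUCY1A1 and GUCY1B1), the kinase PRKG1, and the phosphodiesterases PDE5A, PDE2A, PDE3A and PDE3B. The genes were taken by symbol, and each symbol matched a single row. They had been chosen with their values in this comparison known, so their own differences are described by values, and no p-value is given for them. Poly-A selected RNA was sequenced from 4 samples labelled as endothelial cells (iEC) and 4 labelled as retinal endothelial cells (iREC), all at passage 1 and all differentiated from the established cell line WTC-TJP1, which consists of human induced pluripotent stem cells. The iREC were a matched differentiation of that line. No genotype or drug separates the groups in the labels, and every sample came from the same line, so differences between lines are outside these data. Both groups carry the sample letters C, D, E and F, and the 4 values of a group are always given in that order. The labels do not say whether letters stand for separate differentiations, so p-values measure the spread between these samples, which may be technical.

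In this pathway a synthase in the endothelial cell makes nitric oxide from arginine, and the gas diffuses to soluble guanylyl cyclase, a heterodimer of an alpha and a beta subunit, which then makes cyclic GMP. Cyclic GMP activates the kinase encoded by PRKG1, and phosphodiesterases end the signal by hydrolysing the nucleotide. The synthase is a hallmark of endothelium, whereas the cyclase, the kinase, PDE5A and PDE3A are known above all from smooth muscle, pericytes and platelets.

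Libraries held 14877502 to 16971865 counts in iEC against 13739364 to 15987839 counts in iREC. Levels are given as CPM, counts relative to library size after scaling by the TMM method, and the floor of 3 counts lay between 0.178 and 0.215 CPM. All 13 endothelial markers examined were detected and tested, 3 of them higher and 5 lower in iREC, among them TEK at 58.9 against 833 CPM and PECAM1 at 2233 against 754 CPM (means of iEC and iREC). Summed, they reached 8670 to 12073 CPM in the iEC samples and 5487 to 11610 CPM in the iREC samples, lowest in iREC F. The endothelial label therefore had its markers in every sample. Markers of other cell types were also counted. The sum over 15 mural and smooth muscle markers was 493 to 605 CPM in the iEC samples against 878 to 2046 CPM in the iREC samples, that of 8 fibroblast markers 50.4 to 306 and 156 to 2874 CPM, and that of 7 epithelial markers 391 to 1174 and 302 to 4924 CPM, each highest in iREC F. Of the fibroblast markers 5 were tested, LUM higher and PRRX1 lower in iREC, and of the epithelial markers 5 were tested, with KRT7 higher. The calls of LUM and KRT7 were lost under 6 and 5 alternatives, with adjusted p of up to 0.267 and 0.252. Cardiac markers summed to at most 7.99 CPM, and pluripotent markers to 39.0 to 91.0 CPM in iEC against 53.3 to 505 CPM in iREC. Both sums were highest in iREC F. Of 6 pluripotent markers, POU5F1, NANOG, SOX2 and TDGF1 were too low to be tested. LIN28A and DPPA4 were tested, 1 called higher and 1 called lower in iREC. In bulk RNA, fewer cells of a type and less RNA per cell cannot be told apart.

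All 8 genes passed the filter on low counts, which asks for 4 samples above 0.645 CPM. GUCY1A1, GUCY1B1 and PDE3A, with 0, 1 and 3 iEC samples above it, passed through the iREC samples, where they were high. At an adjusted p under 0.05 in edgeR's quasi-likelihood fit, 6 of them were called, 5 higher and 1 lower in iREC. Over all 15330 tested genes 25.0% were called, 13.2% higher and 11.7% lower, and since the genes had been chosen from this comparison nothing is read from their count. The groups did not overlap in 6 of the 8, 5 higher and 1 lower in iREC, against 14.5% and 14.6% of all tested genes. The plot of levels by sample shows that the cyclase subunits and PDE3A lay farthest apart between the groups, while NOS3 and PDE2A overlapped.

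**Figure D1:**
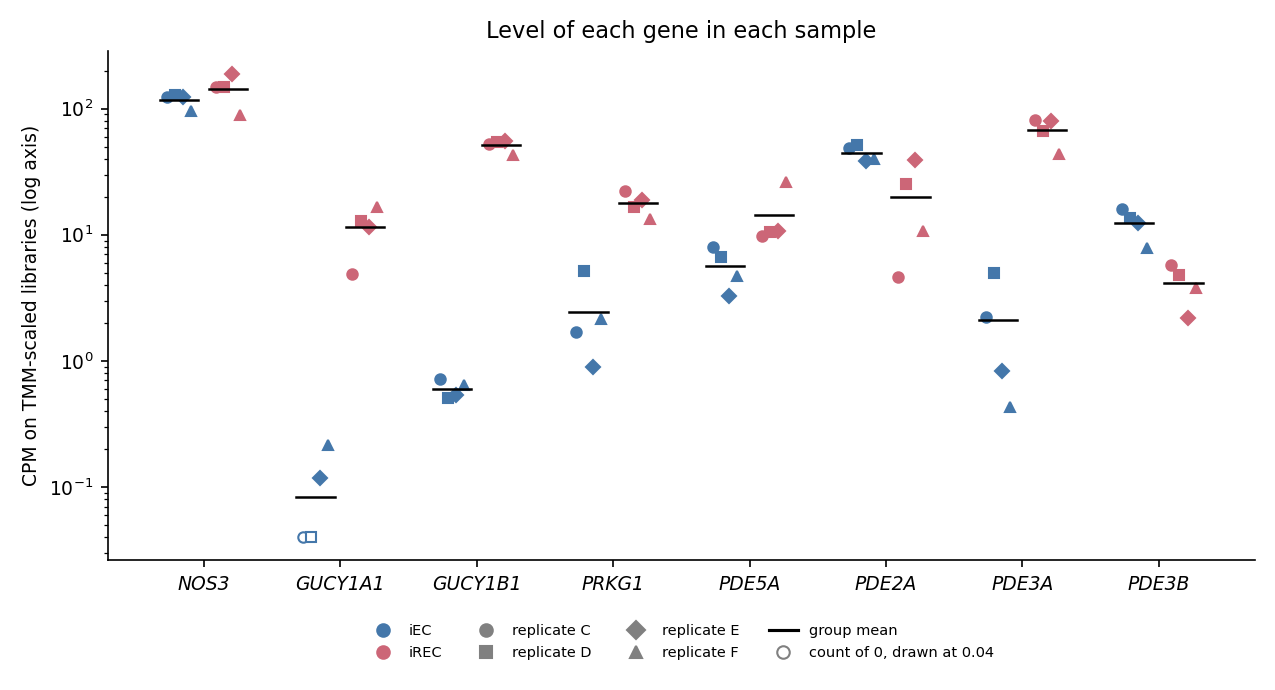
Level of each of the 8 genes in each of the 8 samples, in CPM on a log axis (blue, iEC; red, iREC; marker shape, sample letter; black bar, group mean; open symbol, a count of 0 drawn at 0.04). GUCY1A1, GUCY1B1, PRKG1, PDE5A and PDE3A are higher in every iREC than in every iEC sample, PDE3B is lower, and NOS3 and PDE2A overlap.

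The promoters of the synthase and of both cyclase subunits are shown because these genes form the nitric oxide producing and sensing steps, and because the cyclase genes lie next to each other and differed in the same direction. RefSeq (GRCh38.p14) lists a promoter for 7 of the 8 genes, and the 250 bases before the listed start nearest to the deposited gene's 5′ end are given, 5′ to 3′ on the plus strand, with the letters GGGCGG in capitals. The listed start lies 2787 bases inside the deposited NOS3 gene, 137 inside GUCY1A1 and 29 inside GUCY1B1. The stretches are chr7:150993532-150993781 for NOS3, chr4:155666598-155666847 for GUCY1A1 and chr4:155758771-155759020 for GUCY1B1.
NOS3: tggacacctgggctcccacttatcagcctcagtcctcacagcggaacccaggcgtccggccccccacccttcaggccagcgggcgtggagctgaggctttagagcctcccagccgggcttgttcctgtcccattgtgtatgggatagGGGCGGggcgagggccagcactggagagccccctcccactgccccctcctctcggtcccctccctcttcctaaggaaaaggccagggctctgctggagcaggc
GUCY1A1: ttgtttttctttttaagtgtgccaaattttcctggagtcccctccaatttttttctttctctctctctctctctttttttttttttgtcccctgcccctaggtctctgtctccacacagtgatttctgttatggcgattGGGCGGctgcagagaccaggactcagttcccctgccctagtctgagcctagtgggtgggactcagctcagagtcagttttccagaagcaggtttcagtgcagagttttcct
GUCY1B1: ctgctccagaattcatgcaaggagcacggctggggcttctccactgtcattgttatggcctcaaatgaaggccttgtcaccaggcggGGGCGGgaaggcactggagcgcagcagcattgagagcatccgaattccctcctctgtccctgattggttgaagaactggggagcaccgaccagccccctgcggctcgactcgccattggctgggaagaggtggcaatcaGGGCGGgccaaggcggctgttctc
GGGCGG began 103 bases before the start in NOS3, 111 in GUCY1A1, and 163 and 24 in GUCY1B1. Searched on both strands of the listed 300-base windows, GGGCGG was found in 4 of the 7 promoters (NOS3, GUCY1A1, GUCY1B1 and PDE5A), against 45.0% of all 35116 listed promoters. CACCC was found in 5 of 7 (59.9% of all), GGAAG in 5 of 7 (71.9% of all) and TGACGTCA in 0 of 7 (1.85% of all). The listed start nearest to the 5′ end lies 83596 bases inside the deposited PRKG1 gene and 202834 inside PDE3A. For these genes the windows searched are therefore internal, and the 5′ end was not searched. In GUCY1B1 the GGAAG that begins 158 bases before the start shares a base with the GGGCGG before it, and the copies of GGGCGG that begin 44 and 39 bases before the start of PDE5A share a base. Of these letters, the GUCY1A1 window shown held GGGCGG and CACCC and the GUCY1B1 window GGGCGG and GGAAG. A further start that RefSeq lists for GUCY1A1, 951 bases inside the gene, has GGAAG in its window and no GGGCGG. These matches describe letters only.

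NOS3 (ENSG00000164867, chromosome 7, 150990995 to 151014588, plus strand, GRCh38) encodes the endothelial synthase. It stood at 124, 128, 124 and 95.3 CPM in iEC and at 148, 149, 188 and 88.7 CPM in iREC. The lowest and the highest value were both in iREC, so the groups overlapped. The iEC samples averaged 118 ± 15.1 CPM and the iREC samples 143 ± 41.1 CPM (SD, n = 4 each), a log2 fold change of 0.28 ± 0.21 (SE). It ran from 0.13 without iREC E to 0.45 without iREC F.

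NOS3 was lowest in the F sample of both groups, and iREC F was also the sample with the lowest summed endothelial markers. Expressed per 1000 CPM of those 13 markers, NOS3 stood at 13.4, 10.6, 14.3 and 9.54 CPM in iEC and at 15.8, 15.6, 16.2 and 16.2 CPM in the iREC samples. On this scale the iREC samples averaged 15.9 ± 0.307 (SD, n = 4), iEC averaged 12.0 ± 2.26 (SD, n = 4), and the groups did not overlap. Of the 13 markers in the divisor, 8 differed between the groups. All 8 genes followed here separated on this scale. The share of all tested genes that do so was not computed, so nothing is read from this separation. Exons of ATG9B on the opposite strand cover 786 bases, 13.2% of the exon bases of NOS3. ATG9B itself averaged 2.97 CPM in the iEC and 5.21 CPM in the iREC samples, and whether counting used the strand is not given in the sources used here.

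GUCY1B1 (ENSG00000061918, chromosome 4, 155758992 to 155807591, plus strand) encodes the beta subunit, which binds the haem that senses nitric oxide. Its level was 0.715, 0.506, 0.533 and 0.644 CPM in iEC, from 8 to 11 counts a sample, and 52.4, 54.5, 55.4 and 42.9 CPM in the iREC samples. Every iREC sample was far above every iEC sample, and within each group the values were close together. The log2 fold change was 6.40 ± 0.19 (SE), or 84.7-fold, between 0.599 ± 0.0977 and 51.3 ± 5.73 CPM (SD, n = 4 each). Leaving out any of the 8 samples kept it between 6.33 and 6.49. Of all tested genes, 72.6% had a larger spread of log2 CPM in iEC and 74.8% in iREC.

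GUCY1A1 (ENSG00000164116, chromosome 4, 155666711 to 155732349, plus strand) encodes the alpha subunit that pairs with it. The gene had 0, 0, 2 and 3 counts in iEC, at or below the floor in each, and 75, 180, 189 and 253 counts in the iREC samples. These correspond to at most 0.215 CPM in iEC and to 4.91, 12.8, 11.5 and 16.6 CPM in iREC. The subunit was thus near absence in iEC and present in all 4 iREC samples, lowest in iREC C. Summed over samples, 5 counts in iEC against 697 in iREC gave a ratio of 142, with a 95% exact interval of 60.6 to 439 that covers counting error only. The fitted log2 fold change of 7.01 ± 0.73 (SE) depends on the prior count and ran from 6.61 without iEC D to 7.86 without iEC F.

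The cyclase genes are neighbours on chromosome 4, in the same orientation, 26642 bases apart. A single annotated gene lies in the gap, AC104083.1 (sense overlapping, 155734448 to 155737062, plus strand), which was looked at after its values were seen. It had 0 counts in all 4 iEC samples and 26, 44, 59 and 32 counts in iREC, a mean of 2.64 ± 0.886 CPM (SD, n = 4). Taken against the floor of 3 counts per library, it was at least 12.3-fold higher in iREC.

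GUCY1A2 encodes the alternative alpha subunit, which can replace that of GUCY1A1 in the heterodimer. It rose from 3.32, 2.21, 13.6 and 6.08 CPM in iEC to 141, 115, 188 and 78.9 CPM in the iREC samples. The log2 fold change was 4.37 ± 0.56 (SE, edgeR adjusted p 0.000632), higher in all 4 iREC samples than in any iEC sample, and 5.07 without iEC E, the highest iEC sample. Measured per length, as deposited FPKM (counts scaled to gene length and library size), GUCY1A2 stood at 8.44, 6.87, 11.2 and 4.79 in iREC, above GUCY1A1 in every sample (0.836 to 2.85). The beta subunit exceeded GUCY1A1 by 16.5, 6.56, 7.43 and 4.01 times in iREC. Against both alpha subunits together, its ratio was 1.49, 1.58, 1.10 and 1.5. In iEC the same ratio was 0.948, 1.0, 0.169 and 0.423, at levels near the floor for GUCY1B1. The bar plot of subunit levels shows GUCY1A2 as the more abundant alpha subunit in all 8 samples.

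**Figure D2:**
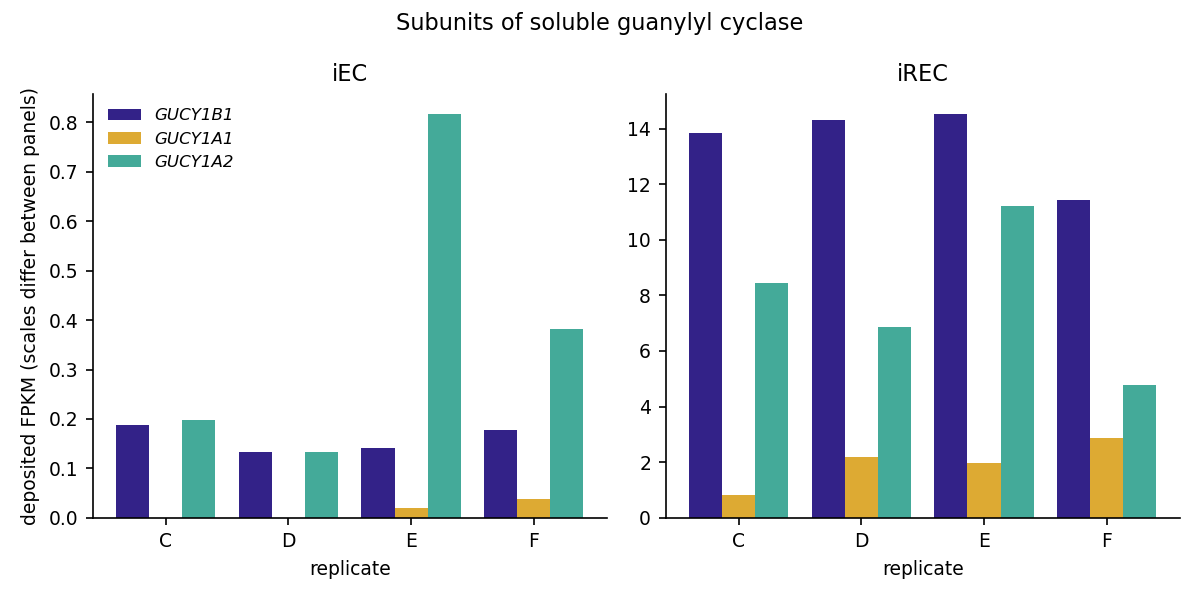
Deposited FPKM of GUCY1B1, GUCY1A1 and GUCY1A2 (bars) in the 4 samples of iEC (left) and iREC (right); the vertical scales differ between panels. In iREC, GUCY1B1 stands at 11.4 to 14.5 FPKM, GUCY1A2 at 4.79 to 11.2 and GUCY1A1 at 0.836 to 2.85, while in iEC GUCY1B1 reaches 0.188 FPKM.

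Smooth muscle and pericytes are rich in this cyclase, so the mural markers stand beside these values. Of 15 mural markers, 10 were tested, 5 were called higher in iREC (TAGLN, MYH11, CNN1, LMOD1 and NOTCH3) and 1 lower (RGS5). TAGLN rose from 34.6 ± 15.7 to 619 ± 238 CPM (SD, n = 4 each; edgeR adjusted p 0.000147) and RGS5, a pericyte marker, fell by 1.40 on the log2 scale (edgeR adjusted p 0.0210), a call lost under 4 of 16 alternatives. The pericyte markers KCNJ8, ABCC9 and HIGD1B had at most 9 counts in any sample. MYOCD and DES, the other untested mural markers, were also below the filter. ACTA2, SMTN, PDGFRB and CSPG4, also on the list, were tested and not called. The median log2 fold change of the 10 tested mural markers was 2.62. In iREC the 15 mural markers summed to 1176, 1089, 878 and 2046 CPM, so iREC F was highest. In that sample GUCY1B1 was the lowest of the iREC values and GUCY1A1 the highest. Platelets are another known source, and the sum over 8 haematopoietic and megakaryocyte markers was 27.6 to 51.7 CPM in the iEC samples and 19.1 to 21.7 CPM in the iREC samples. Most of that sum was RUNX1, which fell (mean 30.2 against 15.5 CPM; edgeR adjusted p 0.0131). PTPRC, a leukocyte marker, had 0 counts in every iEC sample and 42, 17, 13 and 27 in iREC, and was called higher (edgeR adjusted p 0.00243), while the platelet receptor gene GP1BA was at 2.68 and 2.60 CPM and was not called. The part of other cell types in the cyclase levels was not tested.

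PRKG1 (ENSG00000185532, chromosome 10, 50990891 to 52298350, plus strand) encodes the cyclic GMP-dependent kinase of smooth muscle and platelets. It was measured at 1.69, 5.12, 0.888 and 2.15 CPM in iEC and at 22.2, 16.6, 18.9 and 13.4 CPM in iREC. All iREC samples were higher than all iEC samples, with iEC D the closest. From 2.46 ± 1.85 to 17.8 ± 3.73 CPM (SD, n = 4 each) the log2 fold change was 2.85 ± 0.48 (SE), or 7.20-fold, and it was 3.49 without iEC D. Of all tested genes, 7.10% varied more within iEC. Within iREC, PRKG1 was lowest in F, where the mural, fibroblast and epithelial sums were highest and the endothelial sum was lowest. The part of other cell types in the PRKG1 level was not tested.

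The plot of fold changes sets the 8 genes side by side. Both cyclase subunits, the kinase, PDE3A and PDE5A lay above 0 with any sample left out, PDE2A and PDE3B lay below it, and NOS3 lay nearest to it.

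**Figure D3:**
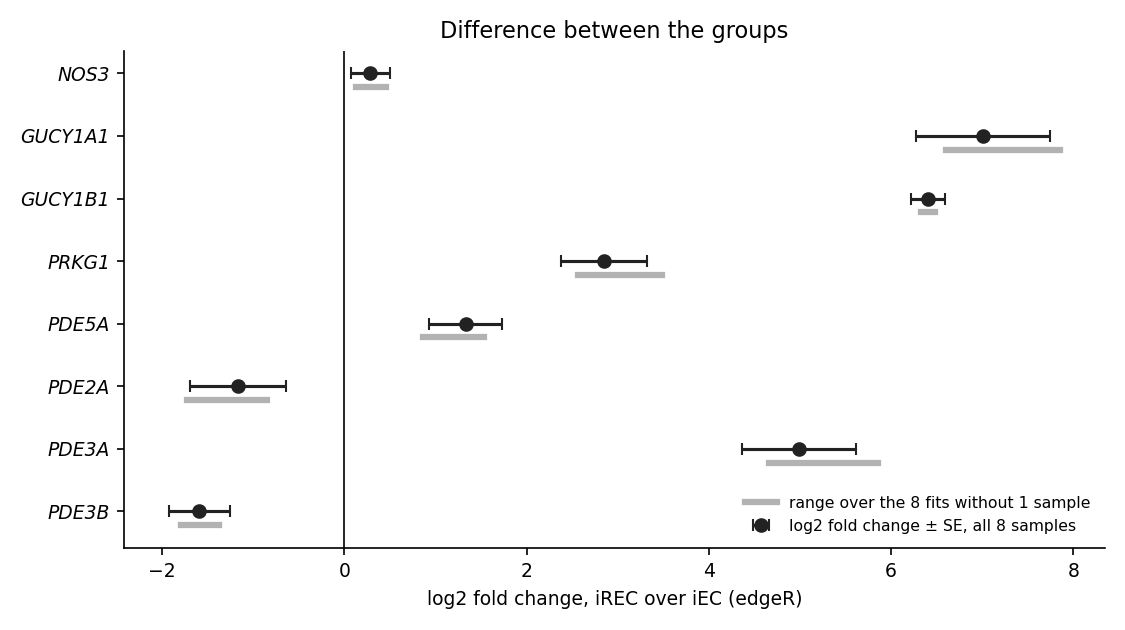
Log2 fold change of each gene, iREC over iEC, from edgeR (points, with SE as error bars, all 8 samples) and the range over the 8 fits that each left out 1 sample (grey bars). GUCY1B1 has the narrowest range, 6.33 to 6.49, and the range of NOS3 stays between 0.13 and 0.45.

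PDE5A (ENSG00000138735, chromosome 4, 119494395 to 119628991, minus strand) encodes the cyclic GMP-specific phosphodiesterase inhibited by sildenafil. Its values were 8.0, 6.70, 3.26 and 4.72 CPM in iEC and 9.81, 10.5, 10.7 and 26.1 CPM in iREC. The groups did not overlap, but iREC F stood well above the other 3 iREC samples, which lay close to iEC C. The log2 fold change of 1.33 ± 0.40 (SE), 2.52-fold, became 0.86 without iREC F. That sample also had the highest mural, fibroblast, epithelial, cardiac and pluripotent sums, whose part in the PDE5A level was not tested. AC093752.1, a transcribed pseudogene on the opposite strand, covers 5.54% of the exon bases of PDE5A and averaged 4.45 CPM in the iEC and 6.98 CPM in the iREC samples, against 5.67 ± 2.10 and 14.3 ± 7.91 CPM for PDE5A (SD, n = 4 each).

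PDE2A (ENSG00000186642, chromosome 11, 72576141 to 72674591, minus strand) encodes a phosphodiesterase that cyclic GMP stimulates and that hydrolyses cyclic AMP as well as cyclic GMP. It stood at 48.7, 51.4, 38.7 and 40.1 CPM in iEC and at 4.65, 25.1, 39.0 and 10.7 CPM in iREC. The iEC samples were alike, and the iREC samples spread from the lowest value, in C, to one inside the iEC range, in E. The ratio of the highest to the lowest iREC sample was 8.40, and 2.89% of tested genes had a larger spread of log2 CPM in iREC. The log2 fold change was -1.17 ± 0.52 (SE) from 44.7 ± 6.27 to 19.9 ± 15.4 CPM (SD, n = 4 each). It ran from -1.73 without iREC E to -0.85 without iREC C. Per 1000 CPM of the endothelial markers PDE2A stood at 4.01 to 5.29 CPM in iEC and at 0.497, 2.62, 3.36 and 1.96 CPM in iREC. On that scale the groups did not overlap, as for all 8 genes, and 8 of the 13 markers in the divisor differed between the groups. Nothing is read from this separation either, since the share of all tested genes was not computed.

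PDE3A (ENSG00000172572, chromosome 12, 20369245 to 20684381, plus strand) encodes a phosphodiesterase that mainly hydrolyses cyclic AMP and that cyclic GMP inhibits, the target of milrinone and cilostazol. It was at 2.21, 4.99, 0.83 and 0.429 CPM in iEC and at 81.1, 67.0, 80.1 and 43.4 CPM in iREC. Every iREC sample was higher than every iEC sample. The iEC samples, at low counts, differed among themselves by up to 11.6 times. The log2 fold change was 4.99 ± 0.63 (SE), or 31.8-fold, from 2.12 ± 2.06 to 67.9 ± 17.6 CPM (SD, n = 4 each), and it was 5.86 without iEC D and 4.66 without iEC F.

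PDE3B (ENSG00000152270, chromosome 11, 14643723 to 14872044, plus strand), the paralogue of PDE3A known from fat and liver, differed in the opposite direction. Its level was 16.0, 13.7, 12.3 and 7.87 CPM in iEC and 5.76, 4.78, 2.20 and 3.80 CPM in iREC. All iREC samples were lower than all iEC samples, iEC F being the closest. The log2 fold change was -1.59 ± 0.33 (SE), 3.01-fold lower in iREC, and stayed between -1.80 and -1.38 when single samples were left out. Per length, PDE3A made up 16.2, 33.8, 8.58 and 7.07% of the summed FPKM of both PDE3 genes in iEC and 95.2, 95.1, 98.1 and 94.1% in iREC.

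The 4 phosphodiesterases were set within the summed FPKM of the 13 genes of the table whose enzymes hydrolyse cyclic GMP. PDE2A took 63.1, 64.4, 60.8 and 59.3% of that sum in iEC and 3.90, 18.3, 24.9 and 8.98% in iREC. PDE3A took 0.543 to 5.35% in iEC and 58.1, 41.8, 43.7 and 31.0% in iREC. The most abundant of the 4 phosphodiesterases by this measure was thus PDE2A in every iEC sample and PDE3A in every iREC sample, as the stacked bars show. The other genes of the 13 are drawn together, so the bars do not rank them singly. PDE5A took 3.76 to 7.61% in iEC, 5.01 to 6.05% in the C, D and E samples of iREC, and 16.1% in iREC F. PDE3B took 7.15 to 12.7% in iEC and 0.860 to 2.96% in iREC. The sum of the 13 genes was 9.95 ± 0.951 FPKM in iEC and 18.2 ± 2.33 FPKM in iREC (SD, n = 4 each), and it did not overlap between groups.

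**Figure D4:**
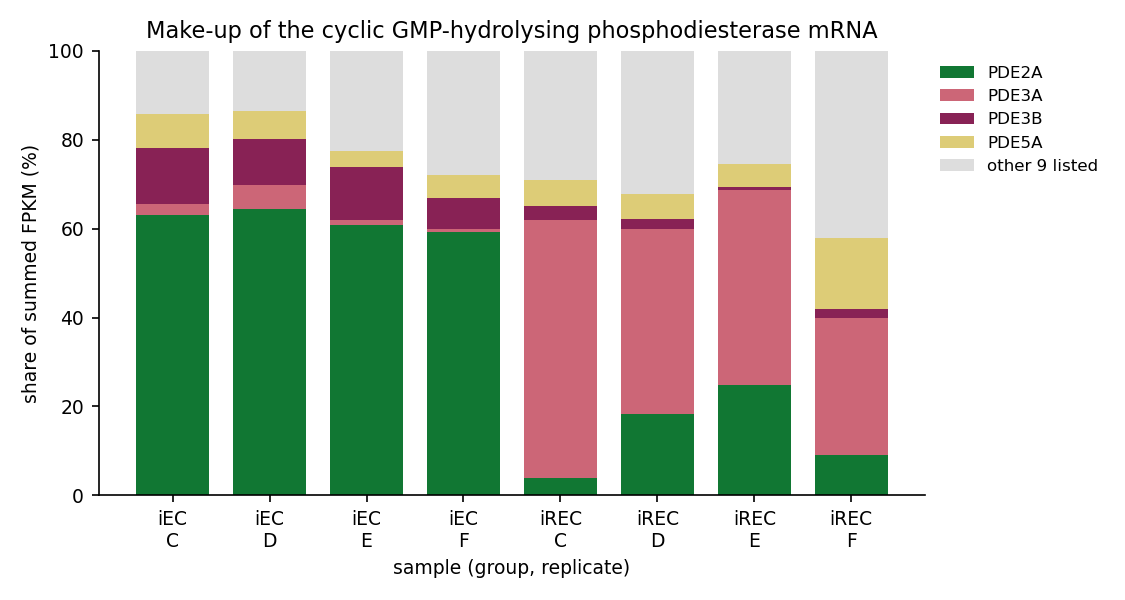
Share, in percent, of the summed deposited FPKM of 13 genes for cyclic GMP-hydrolysing phosphodiesterases taken by PDE2A, PDE3A, PDE3B, PDE5A and the other 9 genes (stacked colours) in each of the 8 samples. PDE2A holds 59.3 to 64.4% in iEC and 3.90 to 24.9% in iREC, and PDE3A holds 31.0 to 58.1% in iREC.

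Ranked per length within a group, NOS3 came first in iEC at a mean of 19.6 FPKM, followed by PDE2A at 6.17 and PDE3B at 1.05. The range of PDE3B, 0.690 to 1.34 FPKM, overlapped that of PDE5A, 0.329 to 0.800. PDE5A, PDE3A, PRKG1 and GUCY1B1 then overlapped in turn at means of 0.574, 0.248, 0.190 and 0.160 FPKM, and GUCY1A1 came last at 0.0146. In iREC, NOS3 (23.6 FPKM, range 14.8 to 30.9) was followed by GUCY1B1 (13.5, range 11.4 to 14.5) and PDE3A (7.94, range 5.13 to 9.49), with no overlap between these neighbours. The range of PDE2A, 0.636 to 5.31 FPKM, reached into that of PDE3A. PDE2A (2.71), GUCY1A1 (1.96), PDE5A (1.44) and PRKG1 (1.36) overlapped in turn, and PDE3B (0.347 FPKM) was lowest.

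For each gene, the 2 protein-coding genes with the nearest profile over the 8 samples were found among 9525 genes whose mean reached 10 CPM, by the root mean square difference of log2 CPM centred on each gene's mean. Nearest to NOS3 were ZNF814 (0.0635) and ZNF189 (0.0838), to PRKG1 CRISPLD1 (0.196) and DOCK11 (0.207), and to PDE5A MALT1 (0.198) and TNFAIP3 (0.225). Nearest to PDE3B were NETO2 (0.330) and NET1 (0.339), and to GUCY1B1 CCDC184 (0.303) and TLL1 (0.463). GUCY1A1 was nearest to IL7R (0.439) and B3GALT2 (0.498), PDE3A to BGN (0.502) and AOC3 (0.520), and PDE2A to PCSK6 (0.522) and TBX3 (0.567). For these 3 the nearest gene lay farther off than for the other 5.

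The rest of the pathway was examined through 4 lists of 71 genes, of which 66 were in the table and 49 were tested. By edgeR's quasi-likelihood test 19 were called, 11 higher and 8 lower in iREC, or 38.8%, beside the 25.0% of all tested genes. Their median log2 fold change was 0.02, like that of all tested genes (0.02). The lists were assembled with earlier results of these data known, and the share is given as a description.

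**Figure D5:**
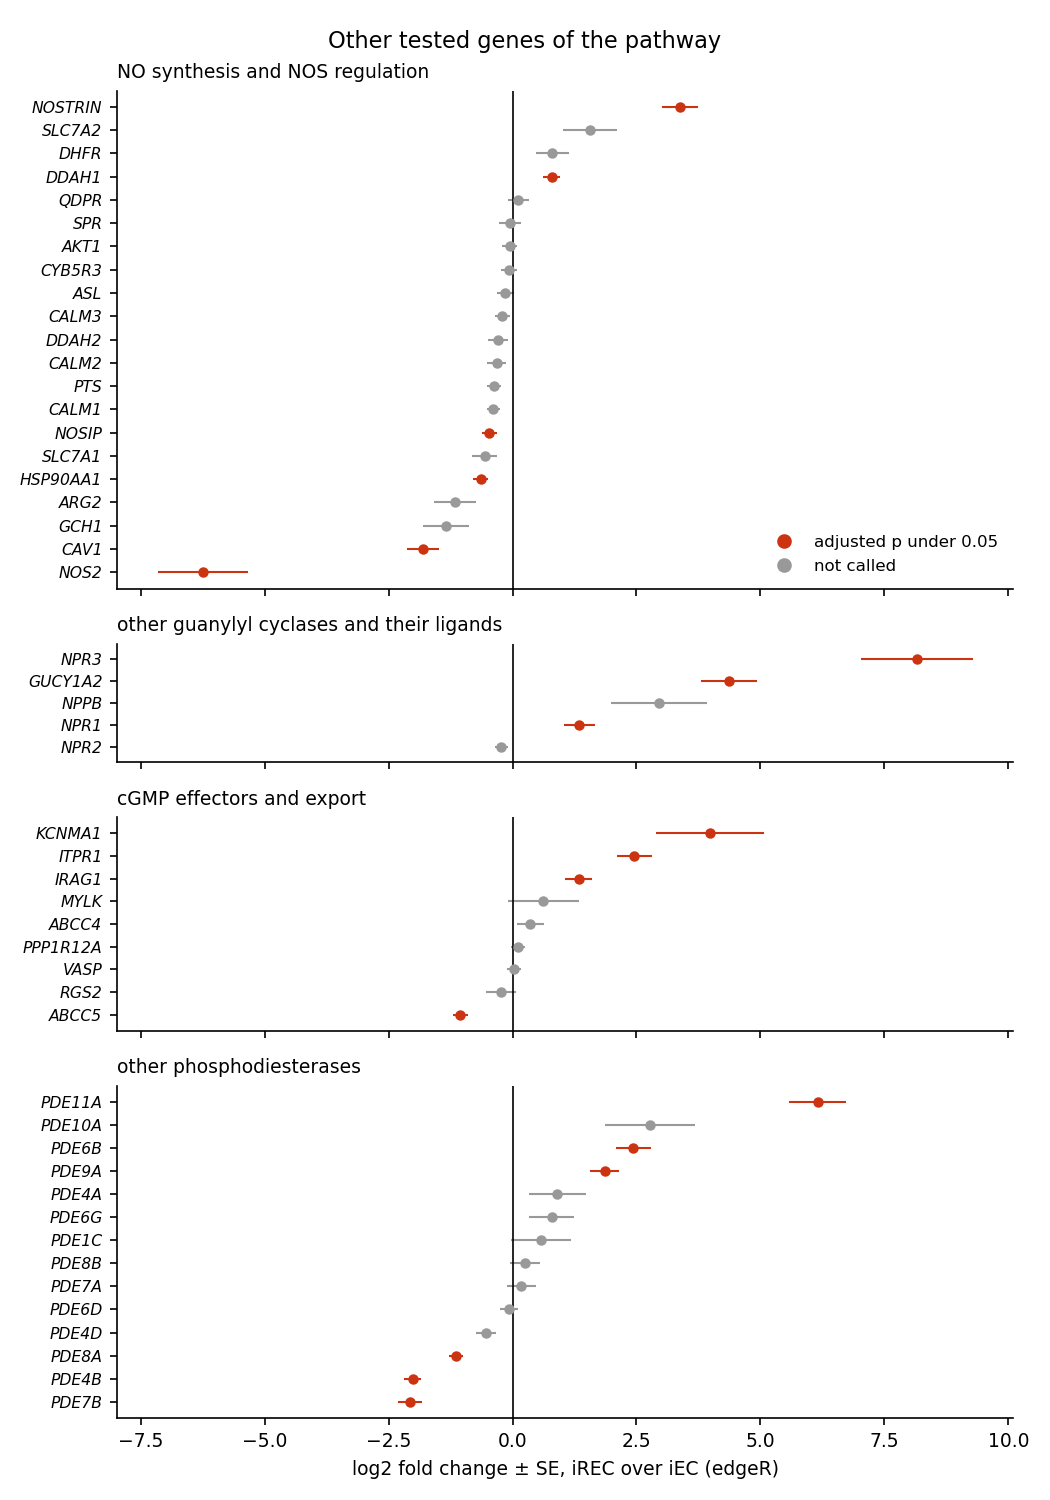
Log2 fold change, iREC over iEC, of the 49 tested genes of the 4 other pathway lists (points, with SE as error bars; red, edgeR adjusted p under 0.05; grey, not called). The called genes lie on both sides of 0 in 3 lists and on the higher side in that of the other cyclases and ligands.

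Around the synthase, 21 of 25 listed genes were tested, 2 rose and 4 fell, with a median of -0.30. NOSTRIN, which moves the synthase off the cell membrane, stood at 6.96, 5.88, 5.80 and 11.6 CPM in iEC and at 64.4, 109, 99.7 and 40.1 CPM in iREC, higher by 3.37 on the log2 scale (SE 0.37; edgeR adjusted p 0.000271). DDAH1, which removes the synthase inhibitor asymmetric dimethylarginine, rose from 118 ± 18.8 to 205 ± 36.1 CPM (SD, n = 4 each; edgeR adjusted p 0.00749). CAV1, the caveolar protein that binds and restrains the synthase, fell from 961 ± 311 to 275 ± 95.4 CPM, with no overlap between groups (edgeR adjusted p 0.00369). HSP90AA1, a chaperone of the synthase, fell by 0.64 on the log2 scale (edgeR adjusted p 0.0157). NOSIP, at -0.47 (edgeR adjusted p 0.0445), was called under 2 of 16 alternatives, with adjusted p from 0.0291 to 0.108 over all of them.

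NOS2, the inducible synthase, fell furthest of the 49 tested pathway genes. It had 52.3, 18.8, 5.33 and 5.73 CPM in iEC and at most 0.357 CPM in iREC. The iEC samples differed widely, with iEC C highest, and the log2 fold change, -6.24 (SE 0.91; edgeR adjusted p 0.00123), was -5.20 without iEC C. Summed counts gave 78.0-fold more in iEC, with a 95% exact interval of 47.8 to 137 for counting error only. ARG2, an arginase that competes for arginine, was at -1.17 on the log2 scale (SE 0.42) and was not called (edgeR adjusted p 0.0749). It was called under 3 of 16 alternatives, among them without iREC F (-1.71), with adjusted p from 0.00534 to 0.174 over all of them. GCH1, which makes the tetrahydrobiopterin cofactor, was at -1.35 (SE 0.46; edgeR adjusted p 0.0613), also not called, but was called under 4 of 16, among them without iREC F (-2.05), with adjusted p from 0.00129 to 0.151. In both genes iREC F was the highest iREC sample. ASS1, of arginine resynthesis, was below the filter in both groups, at 0 to 5 counts in iEC and 3 to 13 in iREC.

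Among the other cyclases and their ligands, 5 of 12 listed genes were tested and 3 rose, with a median of 2.96. Besides GUCY1A2, these were natriuretic peptide receptors. NPR3, the clearance receptor, had 0.390, 11.8, 0.533 and 0.787 CPM in iEC and 599, 1110, 1233 and 922 CPM in iREC. Its log2 fold change was 8.16 ± 1.12 (SE, edgeR adjusted p 0.000919), with iEC D apart from the other iEC samples, and 10.71 without it. NPR1, a membrane receptor that is itself a guanylyl cyclase, lay at 36.0 to 78.9 CPM in the iEC samples and rose to between 82.1 and 194 CPM in the iREC samples (log2 fold change 1.35, SE 0.32; edgeR adjusted p 0.0132). Its groups did not overlap on TMM-scaled libraries and did overlap without that scaling.

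Of the effectors and exporters of cyclic GMP, 9 of 14 listed genes were tested, 3 rose and 1 fell, with a median of 0.36. ITPR1, a calcium release channel, rose from 17.6 ± 8.61 to 96.9 ± 33.1 CPM (SD, n = 4 each; edgeR adjusted p 0.00120). IRAG1, which links that channel to the kinase, rose from 8.18 ± 1.91 to 20.6 ± 5.90 CPM, highest in iREC F (edgeR adjusted p 0.00640). KCNMA1, a potassium channel opened by the kinase, had 1.11, 0.885, 2.78 and 7.73 CPM in iEC and 4.71, 38.8, 13.5 and 139 CPM in iREC, so the groups overlapped. Its log2 fold change, 3.98 (SE 1.09; edgeR adjusted p 0.0264), was not called under 6 of 16 alternatives, with adjusted p from 0.0033 to 0.121 over all of them, and was 2.61 without iREC F. ABCC5, an exporter of cyclic GMP, fell from 84.4 ± 13.4 to 40.7 ± 5.17 CPM (edgeR adjusted p 0.00113). VASP, the kinase substrate, averaged 219 ± 22.4 CPM in iEC against 222 ± 35.5 CPM in iREC (edgeR adjusted p 0.918). Its small difference changed sign with the sample left out.

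Of the other phosphodiesterases, 14 of 20 listed genes were tested, 3 rose and 3 fell, with a median of 0.42. The 3 that rose, PDE11A, PDE6B and PDE9A, encode enzymes that hydrolyse cyclic GMP, and the 3 that fell, PDE7B, PDE4B and PDE8A, encode enzymes specific for cyclic AMP. PDE11A had 2, 0, 5 and 1 counts in iEC and 9.67 ± 2.32 CPM in iREC (SD, n = 4), 74.9-fold more by summed counts (95% exact interval 37.7 to 174, counting error only; edgeR adjusted p 0.000128). Of its 8 iEC counts 5 were in iEC E, and the fitted log2 fold change of 6.16 was 7.01 without that sample. PDE9A, the enzyme with high affinity for cyclic GMP, rose from 1.22 ± 0.263 to 4.43 ± 0.923 CPM, and PDE6B, known from rod photoreceptors, from 1.84 ± 0.761 to 9.99 ± 2.42 CPM, with edgeR adjusted p of 0.00186 and 0.00112. The summed level of 8 photoreceptor, neuron and pigment epithelium markers was 1.93 to 4.74 CPM in iEC and 8.05 to 13.5 CPM in iREC.

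PDE4B fell from 169 ± 37.3 to 41.8 ± 4.55 CPM (SD, n = 4 each; edgeR adjusted p 8.9e-05), PDE7B by 2.06 and PDE8A by 1.14 on the log2 scale (edgeR adjusted p 0.000415 and 0.000606). In all 6 called phosphodiesterases the groups did not overlap, against 14.5% of all tested genes higher and 14.6% lower in iREC. The 6 were picked by their call in these same samples, so the separation adds no support to the calls. PDE4D was at -0.54 ± 0.20 (SE, edgeR adjusted p 0.0854) and was called under 1 of 16 alternatives, without iREC C (-0.73), with adjusted p from 0.0209 to 0.212 over all of them.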

How the data were processed

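Libraries were made from poly-A RNA with dUTP in the second strand, per the labels' protocols. The authors deposited a single table with raw counts per gene and sample, with no rows lacking a gene name. Its normalized signal equals the deposited count divided by a size factor for each sample (0.885 to 1.11), and its deposited FPKM columns scale that signal by gene length and a common library size of 15383181. The authors' deposited table also gives log2 fold changes, which for the 8 genes differ by at most 0.121 from those computed here. The deposited p-values were not used. The submitters' processing notes name fastp, HISAT2 2.0.5 and hg38; the counting program and its use of strand are not given in the sources used here. The 30386 listed genes have the starts and ends of GENCODE 29, and coordinates are 1-based on GRCh38.

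Counts were analysed in R 4.3.3 with edgeR 4.0.16 (filterByExpr, which left 15330 genes, TMM scaling, glmQLFit and glmQLFTest on all 8 samples with group as the only term), with Benjamini-Hochberg adjustment over all tested genes and a threshold of 0.05. In libraries of this size the filter lay at 0.645 CPM. A prior count of 2 entered log2 CPM. The fit was checked on simulated data. The floor is 3 counts in every library, which covers counting error only. Alternatives were 3 other scalings, no filter, a stricter filter (1 CPM or more in every sample of either group, with a mean of 50 counts or more), DESeq2 1.42.0, limma-voom (limma 3.58.1), the sample letter as a block, and each sample left out.

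The 8 genes, the 4 pathway lists, the 8 marker lists and the tests were chosen with earlier results of these data known. Of each pathway list, up to 3 called genes in each direction with the largest fold change were named, with CAV1, ARG2, DDAH1, GCH1, ASS1, NOSTRIN, GUCY1A2, NPR1, VASP, PDE4D and PDE9A whatever their call. NOSIP, NPPB, PDE10A and PLN lie outside that rule, picked once their values had been seen. IRAG1 was matched through its gene identifier to an older symbol, and RGS5, listed in 2 rows, was taken from the protein-coding row. Protein sequences were not used here.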

Additional observations from a re-analysis of the deposited data

Results flagged for a closer look

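In groups of 4 samples, the highest or lowest sample was set apart where it passed Dixon's test for an outlying value, which chance does in about 1 group in 20. Of 78 groups examined, 7 had such a sample, and no explanation was tested. NOS3 in iEC was lowest in F, at 6.58 log2 CPM, against at least 6.95 in the other 3 samples. PDE5A in iREC was highest in F, at 4.72 log2 CPM, against 3.31 to 3.44. Among the pathway genes in iEC, ARG2 was lowest in F, at 2.24 against 3.09 to 3.25 log2 CPM, PDE9A was lowest in E, at -0.0608 against 0.50 to 0.60, and PDE7B was lowest in D, at 4.66 against 5.17 to 5.25. The haematopoietic and megakaryocyte markers, as the log2 of their summed CPM, were highest in iEC E, at 5.72 against 4.84 to 4.87, and lowest in iREC D, at 4.33 against 4.50 to 4.51.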

How the results depend on the processing

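The counts of calls, the fold changes of the 8 genes and those of the genes named for a call were recomputed under up to 16 alternatives. Shares and ratios of FPKM, and sums of markers, were not. The count of called genes, 3829, was 3281 with the stricter filter, 4954 with DESeq2, and 2660 (without iREC D) to 4214 (without iREC F) when samples were left out. The 19 called pathway genes became 17 to 24 with a sample left out and 18 to 24 otherwise. With the letter as a replicate block, 3334 genes were called, 3098 of them among the 3829, and 20 pathway genes, with GCH1 and NPPB gained (adjusted p 0.0406 and 0.0221) and NOSIP lost (0.0737). Deviations of same-letter samples correlated across genes at 0.168, -0.0794, 0.0291 and 0.250 for C, D, E and F. The letters were therefore not taken to pair samples. Of the iREC samples only F correlated best with its own letter, and of the iEC samples only C and F did. The pair of F samples had the highest correlation of any pair. All 8 genes kept their direction under every alternative. PDE2A was at -1.53 and PDE3A at 5.33 with the replicate block. VASP changed sign, from 0.02 to between -0.0933 and 0.0912 with a sample left out; the cause was not tested. NOSIP was lost under 14 of the 16 and KCNMA1 under 6. PDE9A was below the stricter filter. The median log2 fold change of tested genes was 0.02, and 0.16 in DESeq2 and 0.15 without a filter, which include more low genes. Depth limits GUCY1A1 and PDE11A in iEC, at 5 and 8 counts over 4 samples.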

Other observations

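A few pathway genes outside the called set had levels that differed strongly between single samples. NPPB, which encodes B-type natriuretic peptide, stood at 2.41, 1.71, 17.3 and 26.2 CPM in iEC and at 21.0, 97.6, 41.3 and 210 CPM in iREC (samples C, D, E and F), and its log2 fold change was 2.96 ± 0.97 (SE, edgeR adjusted p 0.0514, from 0.0221 to 0.106 over the alternatives). PDE10A, a phosphodiesterase best known from the striatum, was at 0.888 to 1.72 CPM in iEC and at 1.59 to 4.64 CPM in iREC apart from F, which had 29.9 CPM (edgeR adjusted p 0.0505, from 0.00222 to 0.222 over the alternatives). PLN, the kinase substrate phospholamban, was below the filter, at up to 0.130 CPM in iEC and at 0.589, 2.43, 0.855 and 22.1 CPM in iREC. In iREC, the highest value of each of the 3 was in F. That sample also had the highest summed mural, fibroblast, epithelial, cardiac and pluripotent markers. The cardiac markers, all too low to be tested, summed to 0, 1.14, 0.733 and 7.99 CPM in iREC. The part of other cell types in these 3 genes was not tested.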
